A study of Mus musculus with 10 samples.

Results

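Sclerostin, the Dickkopf proteins and the receptors they block were followed in mouse femur through 9 genes: Sost, Sostdc1, Dkk1, Dkk2, Lrp4, Lrp5, Lrp6, Kremen1 and Kremen2. The genes were taken by name, and every gene probe on the array carrying the gene's name or an accession of that gene was kept. This gave 13 probes of the 41174 gene probes on the array. The naming rule used no measured values, but the genes were chosen with earlier results of these data known. Sost, Dkk1, Lrp4 and Kremen1 had a pair of probes each and the other genes had a single probe.

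The samples were femurs of 10 male ICR mice aged 6 months, an outbred stock, with 1 one-colour array for each animal. The control group was 5 freely ambulating mice. The unloaded group was 5 mice suspended by the tail in a head-down tilt for 24 h, which took the load off the hindlimbs. All 10 mice were housed singly, the labels name no transgene or drug, and each femur was a separate biological replicate. The suspended mice also wore tail tape and hung at a tilt, so these and the loss of load cannot be told apart. The comparison asks which transcripts differ in bone after 1 day without loading.

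Wnt ligands signal by bringing a Frizzled receptor together with Lrp5 or Lrp6, which lets beta-catenin accumulate and enter the nucleus. Sclerostin, the product of Sost, is secreted mainly by osteocytes and blocks Lrp5 and Lrp6; Lrp4 binds sclerostin and helps it do so. Dkk1 and Dkk2 also bind Lrp5 and Lrp6, and the Kremen proteins are cell surface receptors for the Dickkopf proteins that help remove Lrp6 from the membrane. In bone this set of genes is known as a brake on formation that responds to mechanical load, with Sost known to rise in unloaded bone of rodents.

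The bases upstream of 3 of the secreted antagonists are shown because Sost, Dkk1 and Dkk2 are the members whose levels were compared most closely from animal to animal below. RefSeq windows on GRCm38.p6 matched 4 of the 9 genes (Sost, Dkk1, Dkk2 and Kremen2). Each line runs 5′ to 3′ on the gene's strand over the 250 bases before the annotated start site, and capitals mark the motifs searched: TATAAA (a core promoter element), CTTTGAT and CTTTGAA (TCF/LEF sites), AACCACA (RUNX site), GGGCGG (GC box) and TGACGTCA (cAMP response element), each on both strands. The windows lie at chr11:101967016-101967265 on the minus strand for Sost, chr19:30549497-30549746 on the minus strand for Dkk1 and chr3:132085042-132085291 on the plus strand for Dkk2.
Sost: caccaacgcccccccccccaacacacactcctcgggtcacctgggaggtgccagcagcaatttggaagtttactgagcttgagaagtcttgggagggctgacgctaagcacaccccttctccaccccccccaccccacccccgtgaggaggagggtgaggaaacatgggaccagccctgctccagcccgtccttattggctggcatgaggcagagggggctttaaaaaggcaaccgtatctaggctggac
Dkk1: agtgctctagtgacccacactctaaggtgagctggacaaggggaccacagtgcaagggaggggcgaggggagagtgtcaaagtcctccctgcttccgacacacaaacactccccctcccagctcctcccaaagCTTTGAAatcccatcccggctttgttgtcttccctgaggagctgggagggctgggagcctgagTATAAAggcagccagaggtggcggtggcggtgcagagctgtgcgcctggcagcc
Dkk2: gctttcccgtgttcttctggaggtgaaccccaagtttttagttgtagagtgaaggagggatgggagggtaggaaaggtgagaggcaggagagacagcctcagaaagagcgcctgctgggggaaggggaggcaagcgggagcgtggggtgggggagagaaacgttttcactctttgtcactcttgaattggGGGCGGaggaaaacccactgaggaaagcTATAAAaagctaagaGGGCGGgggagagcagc
The Dkk1 window held a CTTTGAA beginning 117 bases before the start and a TATAAA beginning 54 bases before it. The Dkk2 window held GGGCGG at 60 and 17 bases and TATAAA at 32 bases before the start. None of the 6 motifs was in the Sost window, whose GC content of 61.2% stood above the median of 52.4% over 32851 RefSeq windows of the same length. Among those windows, 12.4% held TATAAA, 4.46% held CTTTGAA, 3.21% held CTTTGAT, 4.40% held AACCACA, 32.7% held GGGCGG and 1.55% held TGACGTCA. These matches describe letters and were not linked to any measured binding.

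Signals are log2 values after subtraction of the array's own 75th percentile, which lay between 637 and 903 intensity units, and every difference is unloaded minus control. A level of 0 is therefore a probe as bright as that percentile, and levels of different probes are not comparable because probes bind with different strength. The arrays lay on 3 slides, each scanned at its own time: slide 1 held controls 1 to 4, slide 2 held control 5 and unloaded animals 1 to 3, and slide 3 held unloaded animals 4 and 5. Slide and group are thus largely confounded, and slide 2 is the 1 slide holding both. Body weight was 28.6 g ± 1.78 (SD, n = 5) in controls and 27.3 g ± 1.72 (SD, n = 5) in unloaded mice (exact permutation p = 0.278, two-sided). All 8 osteocyte markers (among them Dmp1, Mepe and Phex) and all 9 osteoblast markers with a tested probe were well above background on all 10 arrays. So were all 11 chondrocyte and all 13 skeletal muscle markers. Of each array's gene spots 89.8% to 95.5% were well above background, so this flag alone does not tell which cell types were present. Mean levels on single arrays were no lower than 1.16 for osteocyte, 1.74 for chondrocyte and 3.37 for muscle markers, above the 75th percentile. Single markers such as Fgf23, at -2.36 in controls, lay below it.

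After 24 h no member passed the test, in either direction. Of 38629 probes tested with limma, 1 reached an adjusted p below 0.05 (Benjamini-Hochberg) and is termed called (0.00259% of probes), and 0 of the 12 tested member probes were. At an unadjusted p below 0.05 there were 2 of the 12 member probes, Kremen1 probe 1 and Lrp6, against 6225 probes or 16.1% of all probes tested. The control and unloaded ranges overlapped for each of the 12 tested probes, whereas they did not overlap for 3.16% of all probes measured on every array. For the 8 genes with a tested probe the median log2 fold change of the brightest probes was 0.07, the same as the median of 0.07 over all tested probes, and 5 were positive and 3 negative. The 95% interval included 0 for 10 of the 12 probes.

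**Figure D1:**
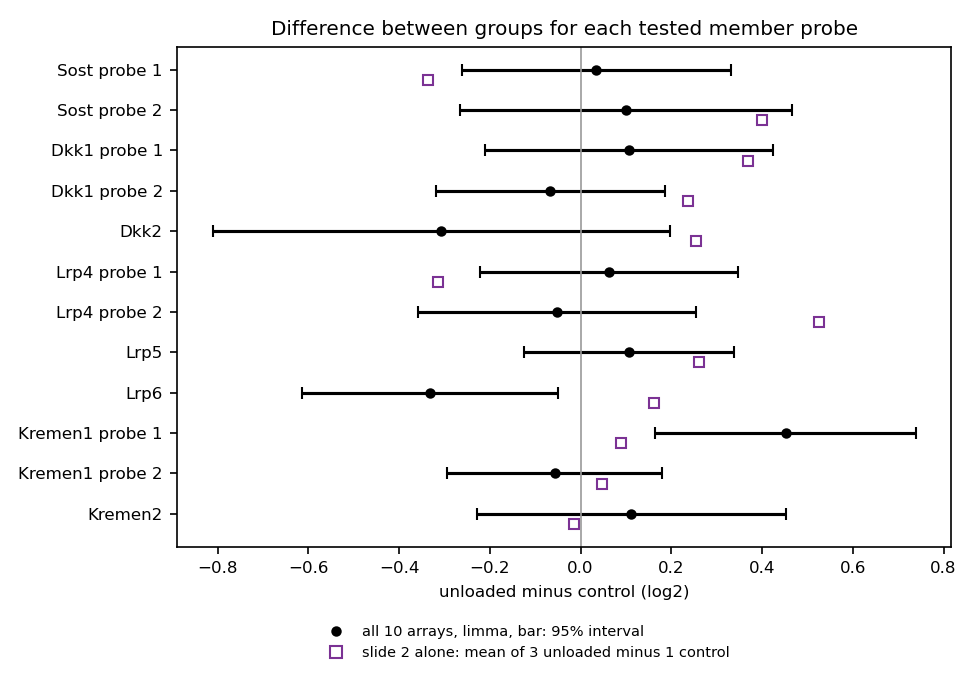
Log2 fold change, unloaded minus control, of each of the 12 tested member probes with its unadjusted 95% limma interval (n = 5 against 5). Kremen1 probe 1 at 0.45 and Lrp6 at -0.33 are the probes whose interval leaves out 0, and neither passed adjustment.

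Sost, the gene for sclerostin, passed the test on neither of its probes, and its groups overlapped on both. Probe 1, the brighter, read 0.08, -0.27, -0.30, 0.34 and 0.37 in controls 1 to 5, and 0.03, -0.07, 0.13, 0.17 and 0.12 in unloaded animals 1 to 5. All 5 unloaded values lay inside the span of the controls. Its log2 fold change was 0.03 (SE 0.14; limma adjusted p = 0.904), a ratio of 1.02 with a 95% interval from 0.83 to 1.26, and it turned to -0.06 when arrays were scaled to their median. Probe 2 read -1.52, -0.69, -0.64, -1.21 and -1.24 in controls and -0.87, -0.61, -1.05, -1.10 and -1.17 in unloaded bone. Its log2 fold change was 0.10 (SE 0.17; limma adjusted p = 0.764), with an interval of the ratio from 0.83 to 1.38. On slide 2 alone the 3 unloaded animals averaged -0.34 relative to control 5 on probe 1 and 0.40 on probe 2. These intervals are unadjusted and are no limit of detection. With 5 animals a group the test could also miss larger changes, as Kremen1 probe 1 at a ratio of 1.37 did not pass. In a piece of whole bone, fewer cells of a type and less RNA per cell cannot be told apart.

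The 2 Sost probes disagreed on which animals were high. Controls 2 and 3 were the lowest animals on probe 1 and the highest controls on probe 2, and controls 4 and 5 were the highest on probe 1. With group means removed, the probes correlated at Pearson r = -0.78 over 10 arrays (Spearman rho = -0.70; permutation p = 0.00888, adjusted p = 0.053 over 66 probe pairs). The value was -0.52 without the 2 arrays farthest from the median of probe 1, and -0.80 with slide means removed as well. Removing slide means leaves control 5, the control on slide 2, with no deviation of its own. Such values, here and below, rest on the other arrays. Among 5410 genes with exactly 2 tested probes the median of this correlation was 0.21, and 1.05% of them had a value as low as that of Sost. Both probes are filed under the same Sost transcript, so no statement on which animals had more Sost RNA holds on both.

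**Figure D2:**
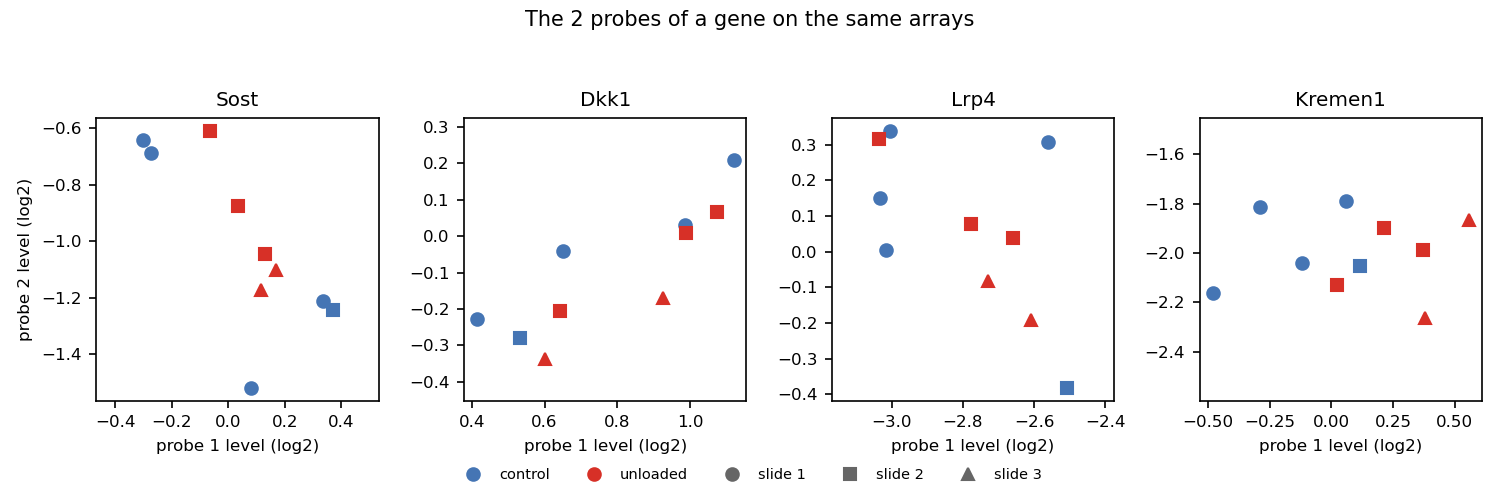
Log2 level of the 2 probes of Sost, Dkk1, Lrp4 and Kremen1 plotted against each other, 1 point for each of 10 arrays, coloured by group and shaped by slide. The points of Sost slope downwards (r = -0.78 with group means removed) and those of Dkk1 upwards (r = 0.92).

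Sostdc1, which encodes wise, a close relative of sclerostin, was not well above background on any array. Its single probe had processed signals from 9.55 to 37.6 intensity units, on arrays where the lowest signal called well above background was 34.0 to 58.9 units. It was not tested, and no ratio is given.

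Dkk1, a secreted antagonist that binds Lrp5 and Lrp6, did not pass the test, and its 2 probes ran together. Probe 1, the brighter, read 0.41, 1.12, 0.99, 0.65 and 0.53 in controls 1 to 5, and 0.64, 1.07, 0.99, 0.60 and 0.93 in unloaded animals 1 to 5. Controls 2 and 3 and unloaded animals 2 and 3 were the highest of their groups. Unloaded minus control came to 0.11 (SE 0.15; limma adjusted p = 0.708), a ratio of 1.08 with a 95% interval from 0.86 to 1.34. Probe 2 read -0.23, 0.21, 0.03, -0.04 and -0.28 in controls and -0.21, 0.07, 0.01, -0.34 and -0.17 in unloaded bone, with a log2 fold change of -0.07 (SE 0.12; limma adjusted p = 0.771). Both intervals include 0. On slide 2 alone the difference from control 5 was 0.37 on probe 1 and 0.24 on probe 2. The probes correlated at r = 0.92 with group means removed (rho = 0.90; permutation p = 0.00041, adjusted p = 0.027 over 66 pairs; r = 0.88 without the 2 farthest arrays, and 0.97 with slide means removed).

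Dkk2, a relative of Dkk1 that can act for or against Wnt signalling depending on its partners, was dim but well above background on all 10 arrays. It read -3.12, -1.90, -2.11, -2.74 and -3.27 in controls and -2.98, -2.80, -3.28, -2.94 and -2.68 in unloaded bone. Controls 2 and 3 were the highest of all animals, and the control SD of 0.60 was the widest among the tested member probes, against 0.22 in the unloaded group. Its log2 fold change was -0.31 (SE 0.23; limma adjusted p = 0.484), with an interval of the ratio from 0.57 to 1.15. It was -0.13 without control 2 and -0.47 without control 5, and on slide 2 alone the difference from control 5 was 0.25.

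**Figure D3:**
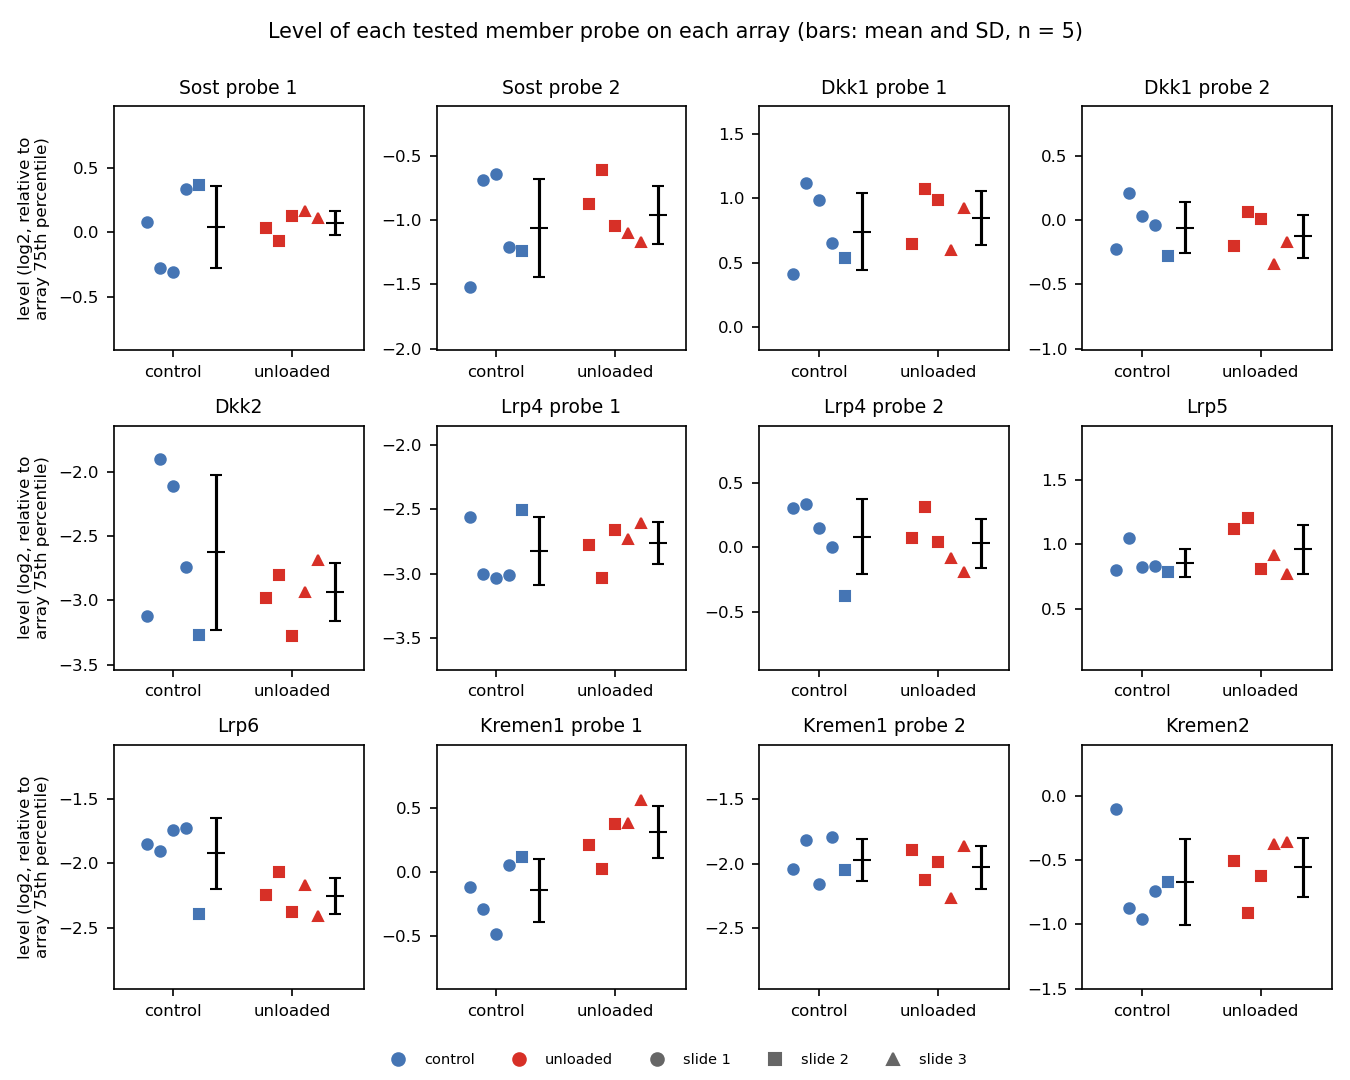
Log2 level relative to the array's 75th percentile for each of the 12 tested member probes in each of the 10 animals; colour gives the group, symbol shape the slide, and bars the mean and SD (n = 5). The control and unloaded ranges overlap in every panel, and in the Lrp6 panel control 5, the square, lies at -2.39 among the unloaded values.

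Among the receptors, Lrp4, which holds sclerostin at the cell surface, showed no difference beyond its spread. Probe 2 read 0.31, 0.34, 0.15, 0.00 and -0.38 in controls and 0.08, 0.32, 0.04, -0.08 and -0.19 in unloaded bone, a log2 fold change of -0.05 (SE 0.14; limma adjusted p = 0.856). Probe 1 is filed under a cDNA clone of the gene and was dimmer, with control values from -3.03 to -2.51 and unloaded values from -3.03 to -2.61. Its log2 fold change was 0.06 (SE 0.13; limma adjusted p = 0.812). The 2 Lrp4 probes also ran against each other, with r = -0.57 (permutation test, adjusted p = 0.165), and control 5 was lowest on probe 2 and highest on probe 1. On slide 2 alone the difference from control 5 was 0.53 on probe 2 and -0.31 on probe 1.

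Lrp5, the co-receptor whose loss lowers and whose sclerostin-resistant variants raise bone mass, read 0.80, 1.05, 0.82, 0.83 and 0.78 in controls and 1.12, 1.20, 0.81, 0.91 and 0.77 in unloaded bone. Unloaded animals 1 and 2 lay above all controls, and the other 3 lay within the control range or just below it. The difference was 0.11 (SE 0.11; limma adjusted p = 0.598), with an interval of the ratio from 0.92 to 1.26, and on slide 2 alone the difference from control 5 was 0.26.

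Lrp6, the co-receptor that Dkk1 and sclerostin both block, had the lowest fold change. It read -1.85, -1.90, -1.74, -1.72 and -2.39 in controls and -2.25, -2.07, -2.38, -2.17 and -2.41 in unloaded bone. All 5 unloaded values lay below the 4 controls of slide 1, while control 5, on slide 2, lay among the unloaded values. Its log2 fold change was -0.33 (SE 0.13; unadjusted p = 0.0242 and adjusted p = 0.274 in limma; exact permutation p = 0.0556, two-sided), a level 1.26-fold lower. On slide 2 alone the 3 unloaded animals averaged 0.16 above control 5, a difference of the opposite sign. A second probe, filed under a clone name that is an older name of Lrp6 and so outside the rule, gave 0.17 (SE 0.10; limma adjusted p = 0.385) and correlated with the Lrp6 probe at r = 0.17, a description over 10 arrays. The sign of the Lrp6 difference thus turned on the clone probe and within slide 2.

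Kremen1, a Dickkopf receptor, had the largest fold change of the members, on 1 of its 2 probes. Probe 1 read -0.12, -0.29, -0.48, 0.06 and 0.12 in controls and 0.21, 0.02, 0.37, 0.38 and 0.56 in unloaded bone. Of the unloaded animals, 4 of 5 lay above every control, and unloaded animal 2 lay within the control range. The log2 fold change was 0.45 (SE 0.13; unadjusted p = 0.00459 and adjusted p = 0.238 in limma; exact permutation p = 0.0238, two-sided), a ratio of 1.37 with a 95% interval from 1.12 to 1.67. The smallest p that this permutation test allows is 0.00794. Control 5 was 0.32 above the mean of the slide 1 controls, and on slide 2 the unloaded animals averaged 0.09 above control 5.

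Kremen1 probe 2, filed under a cDNA clone, read -2.04, -1.82, -2.16, -1.79 and -2.05 in controls and -1.90, -2.13, -1.99, -2.26 and -1.87 in unloaded bone. Its log2 fold change was -0.06 (SE 0.11; limma adjusted p = 0.794), and its ranges overlapped throughout. Over all arrays the within-array difference of the probes had an exact permutation p of 0.0238 between groups (two-sided, unadjusted, 4 genes with 2 probes compared). On slide 2 alone the probes gave nearly the same difference from control 5, 0.09 and 0.05. The mean of both probes gave 0.20 (limma adjusted p = 0.355). Which transcripts the 2 probes detect was not tested.

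Kremen2, the second Dickkopf receptor, read -0.11, -0.87, -0.96, -0.74 and -0.67 in controls and -0.51, -0.91, -0.63, -0.38 and -0.36 in unloaded bone. Control 1 was the highest of all animals. Unloaded minus control was 0.11 (SE 0.16; limma adjusted p = 0.712), and on slide 2 the unloaded animals averaged -0.01 relative to control 5.

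Across animals, several member probes varied together in patterns that cut across the groups. These correlations used levels with group means removed over 10 arrays. The arrays share a scaling, and the 66 pairs share probes. The permutations took the centred values as free, although removing group means ties them, so their p-values are somewhat too small. Of the 66 pairs, 3 had an adjusted permutation p below 0.05 for r. Besides the Dkk1 probes, Sost probe 1 rose with Kremen1 probe 1 (r = 0.87, rho = 0.92; permutation p = 0.00125, adjusted p = 0.027; r = 0.82 without the 2 farthest arrays). Sost probe 2 fell as Kremen2 rose (r = -0.88, rho = -0.83, permutation p = 0.00082, adjusted p = 0.027 for r and 0.069 for rho). This r was -0.87 without the 2 farthest arrays. Lrp4 probe 2 with Kremen1 probe 1 passed on ranks alone (rho = -0.89, permutation test, adjusted p = 0.021 for rho and 0.054 for r). The other probes of these genes gave other values. Sost probe 1 had r = 0.12 with Kremen1 probe 2 and 0.43 with Kremen2. Lrp4 probe 1 had r = 0.69 with Kremen1 probe 1, and Lrp4 probe 2 had r = 0.01 with Kremen1 probe 2. The relations of Sost and Lrp4 with the Kremen genes are thus of single probes. Sost probe 2 with Dkk1 probe 1 had r = 0.79 and with Dkk2 r = 0.76, and Dkk1 probe 1 with Dkk2 had r = 0.76; the adjusted permutation p-values of these 3 pairs, 0.053, 0.056 and 0.056, missed the threshold. Without the 2 farthest arrays these 3 values were 0.62, 0.50 and 0.55. Sost probe 1 ran the other way, with r = -0.81 against Dkk2 (adjusted permutation p = 0.053). Further pairs missed by as little, among them Sost probe 2 with Kremen1 probe 1 (r = -0.82) and with Lrp4 probe 1 (r = -0.81). Each of these had an adjusted permutation p of 0.053.

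The levels of the members were set against the mean level of marker genes of 3 cell types, since a femur sample can hold more or less of each. The osteocyte marker mean lay between 1.16 and 1.45 in controls and between 1.27 and 1.61 in unloaded bone, the chondrocyte mean between 1.74 and 2.55 and between 1.97 and 2.77, and the skeletal muscle mean between 3.37 and 4.66 and between 3.54 and 4.59. None of the markers of these lists was called, and the ranges of the groups overlapped for each list. Differences of all 8 osteocyte and all 11 chondrocyte markers were positive, and 12 of the 13 muscle markers were negative, with none passing the adjusted threshold; over all tested probes 62.6% were positive, or 43.9% when arrays were scaled to their median. The 3 means themselves varied together, with r = 0.70 for osteocyte with chondrocyte markers, 0.64 for osteocyte with muscle and 0.53 for chondrocyte with muscle, as descriptions over 10 arrays.

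Lrp5 followed the chondrocyte markers. The brightest tested probe of each of 8 genes was set against the 3 lists. Of these 24 relations, this was the one with an adjusted permutation p below 0.05. Its r was 0.90 (rho = 0.95, permutation p = 0.00049, adjusted p = 0.012). It was 0.75 without the 2 arrays farthest from the median marker level and 0.91 with slide means removed. Animals with high cartilage signal, control 2 and unloaded animals 1 and 2, were also the 3 with the highest Lrp5. Of all tested probes, 0.332% had a correlation with the chondrocyte markers at least as high. The part of cartilage content in the Lrp5 differences between animals was not tested.

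The dimmer probes, here called second, were probe 2 of Sost, Dkk1 and Kremen1 and probe 1 of Lrp4. Those of Dkk1 and Sost passed the threshold with osteocyte markers in their own family of 12 relations. Their first probes missed it in a separate family of 24. The families were adjusted apart, so passing and missing were not compared between probes. The correlation with the osteocyte mean was 0.72 for Dkk1 probe 1 (adjusted permutation p = 0.143 over 24 relations) and -0.63 for Sost probe 1 (adjusted permutation p = 0.149). Among the 12 relations of the second probes, a family chosen after the data were seen, Dkk1 probe 2 had r = 0.79 with osteocyte markers (rho = 0.76; permutation p = 0.00790, adjusted p = 0.047; r = 0.61 without the 2 farthest arrays). Sost probe 2 had r = 0.76 (rho = 0.70; permutation p = 0.01225, adjusted p = 0.049; r = 0.79 without the 2 farthest arrays), while its Spearman adjusted p was 0.074. Other marker lists gave values of similar size, and the differences between lists were not tested. Sost probe 2 had r = 0.72 with skeletal muscle markers (rho = 0.83; permutation test, adjusted p = 0.058 for r and 0.034 for rho) and r = 0.69 with chondrocyte markers (rho = 0.77; permutation test, adjusted p = 0.058 for r and 0.045 for rho). Without the 2 farthest arrays these were 0.70 and 0.37. Dkk1 probe 2 had r = 0.70 with chondrocyte markers (rho = 0.64; permutation test, adjusted p = 0.058 for r), which was 0.30 without the 2 farthest arrays. Lrp4 probe 1 fell as chondrocyte markers rose (r = -0.80, rho = -0.82; permutation p = 0.00583, adjusted p = 0.047; r = -0.71 without the 2 farthest arrays).

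The osteocyte markers were also taken one by one, as a description. Sost probe 2 correlated positively with 6 of 8 of them, with 0.61 for Dmp1, a matrix protein of osteocytes, and 0.67 for Mepe, another. Sost probe 1 correlated negatively with 6 of the 8, with -0.71 for Phex, an osteocyte peptidase that keeps phosphate in balance. Dkk1 probe 1 correlated positively with 6 of 8, with 0.82 for Mepe, and Dkk1 probe 2 with 7 of 8, with 0.75 for Phex. Fgf23 and Ptprz1 differed, at 0.22 and 0.46 for Sost probe 1 and -0.11 and -0.12 for Sost probe 2. They were at -0.06 and -0.31 for Dkk1 probe 1 and 0.02 and -0.23 for Dkk1 probe 2. The Ptprz1 probe read 8.42 in controls, against 3.23 for Mepe, the next brightest of the list. What the Ptprz1 probe detects was not tested. Of all tested probes, 1.23% had a correlation with the osteocyte mean as high as that of Sost probe 2, and 5.68% as low as that of Sost probe 1.

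**Figure D4:**
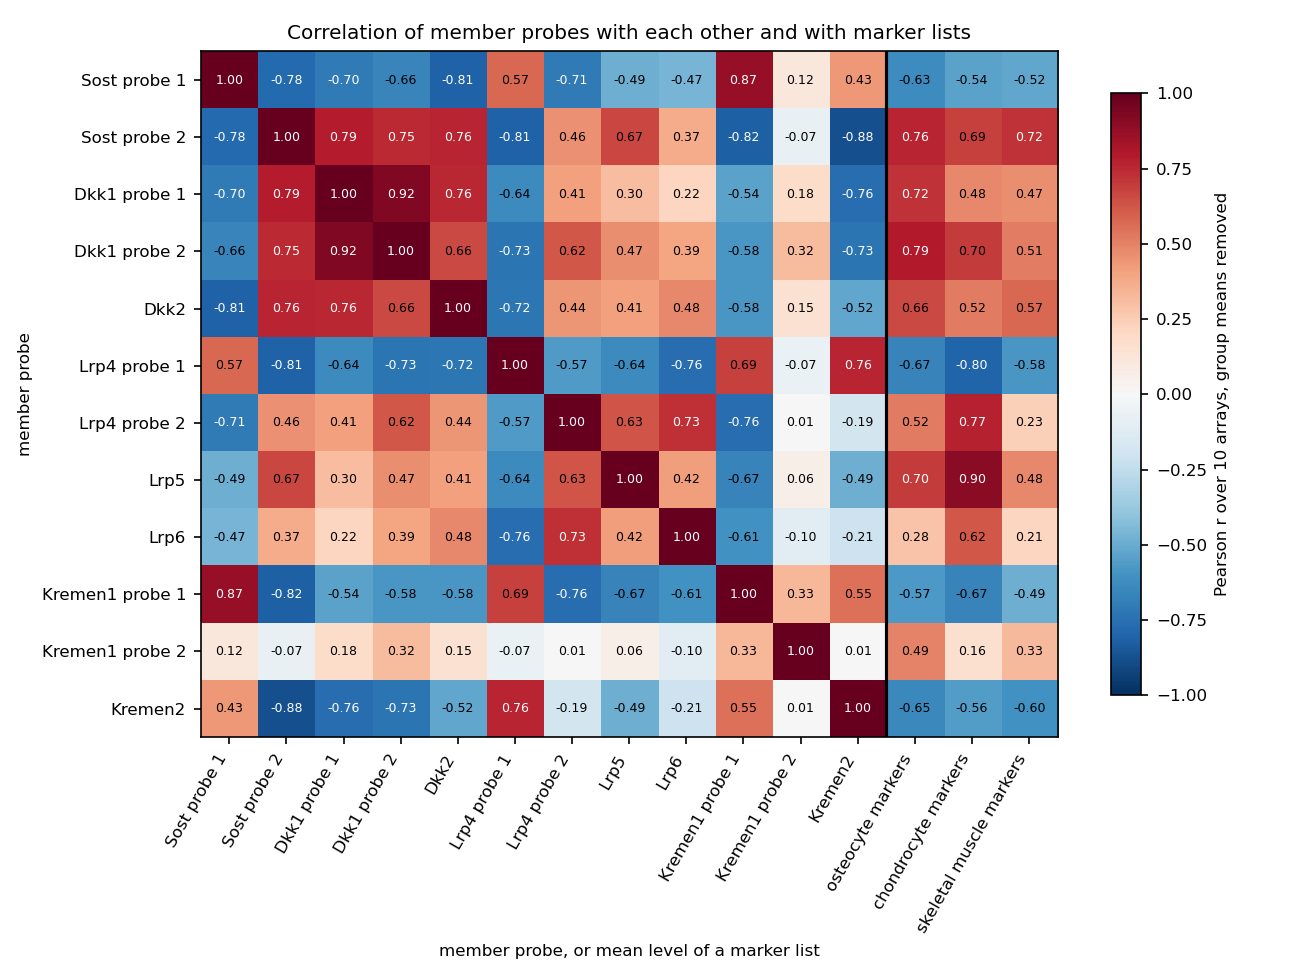
Pearson correlation over 10 arrays, group means removed, of each of the 12 tested member probes (rows) with each other and, right of the line, with the mean level of osteocyte, chondrocyte and skeletal muscle markers (columns). Lrp5 with chondrocyte markers at 0.90 is the highest of the marker values, and Sost probes 1 and 2 lie on opposite sides of 0 for osteocyte markers at -0.63 and 0.76.

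The genes most like the members were ranked by the same correlation over 17713 genes, as a description. Megf11 was nearest to Sost probe 1 (r = 0.98), followed by Disc1 and Slc8a2 (each 0.96). Vps4b, a subunit of the machinery that recycles membrane-sorting complexes, was nearest to Sost probe 2, with r = 1.00 to 2 decimals, ahead of Oaz2 and Ero1a at 0.94 each; this ranking, over 17798 genes, was added after the data were seen. What Sost probe 2 detects was not tested, so its fold change and its correlations are those of the probe as the array names it. Jam3 was nearest to Dkk1 (0.94), Kcnma1 to Dkk2 (0.98), Spats2l to Lrp4 (0.96), Cd96 to Lrp5 (0.98), Serpina6 to Kremen1 (0.98) and Cyb5r2 to Kremen2 (0.99). All these values were picked as the highest of many over few arrays, which by itself favours high values. Whether the genes are regulated together was not tested.

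Genes around the members in the pathway were described by lists, and none of their genes was called; their signs are read against the 62.6% of all tested probes that were positive. Of 11 other secreted Wnt antagonists, 8 had a positive and 3 a negative log2 fold change, with a median of 0.12. Sfrp2, a secreted decoy for Wnt ligands, had the lowest, -0.58 (SE 0.14; limma adjusted p = 0.218). Other members of the list lay above 0: Dkk4, another Dickkopf, at 0.37 (SE 0.13), and Frzb, a decoy made in cartilage, at 0.35 (SE 0.13), with limma adjusted p-values of 0.260 and 0.262. At an unadjusted p below 0.05 there were 2 higher and 1 lower among the 11, the genes just named, against 16.1% of all probes tested. Among the lists below, the 15 co-receptor partners had 1 higher and 0 lower. The 24 tested genes of beta-catenin turnover and transcription had 1 higher and 2 lower. The 22 target genes of beta-catenin had 1 and 0, and the 20 tested genes upstream of Sost had 0 and 2.

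Of 15 partners of the co-receptors, which include the R-spondins, their Lgr receptors, the Lrp chaperones, and agrin with the Musk complex that Lrp4 joins as agrin's receptor, 9 were positive and 6 negative, with a median of 0.01. Lgr4, an R-spondin receptor, had 0.22 (SE 0.10) and its ligand gene Rspo2 0.26 (SE 0.12), with limma adjusted p-values of 0.304 and 0.311. Mesd, the chaperone that folds Lrp5 and Lrp6, had 0.16 (SE 0.11), and Lrpap1, another receptor chaperone, -0.16 (SE 0.13).

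Inside the cell, 24 of 25 listed genes of beta-catenin turnover and transcription had a tested probe, with 10 positive, 14 negative and a median of -0.06. Ctnnbip1, an inhibitor that keeps beta-catenin from TCF factors, had 0.28 (SE 0.09; limma adjusted p = 0.248). Amer1, a membrane adaptor of the destruction complex, had -0.48 (SE 0.16; limma adjusted p = 0.252), with a spread of 0.41 in unloaded bone against 0.07 in controls (SD, n = 5 each). Csnk1g1, a casein kinase that phosphorylates Lrp6, had -0.26 (SE 0.10), and Tcf7l1, a TCF factor that mainly represses, -0.24 (SE 0.11).

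Of 22 target genes of beta-catenin, 13 were positive and 9 negative, with a median of 0.03. Ccn1, a matricellular protein gene that many stimuli besides Wnt induce, had the largest value, 0.64 (SE 0.17; limma adjusted p = 0.218). Axin2, a feedback inhibitor widely used as a Wnt readout, had -0.17 (SE 0.12; limma adjusted p = 0.455), Lef1 -0.26 (SE 0.13), Cd44 -0.28 (SE 0.15) and Sp5 0.16 (SE 0.11). Axin2 was added to the genes named by rule because of its common use.

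Of 21 listed genes that act upstream of Sost, 20 had a tested probe, of which 5 were positive and 15 negative, with a median of -0.10. Sirt1, a deacetylase reported to silence Sost, had -0.39 (SE 0.16; limma adjusted p = 0.275), and Mef2a, of the factor family that drives the distant Sost enhancer, had -0.30 (SE 0.14; limma adjusted p = 0.308). Crtc2 and Sik3, of the cAMP branch through which parathyroid hormone lowers Sost, had -0.21 (SE 0.11) and 0.17 (SE 0.09). The signs of lists depend on scaling, since the median of all tested probes was 0.07 here and -0.03 when arrays were scaled to their median.

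**Figure D5:**
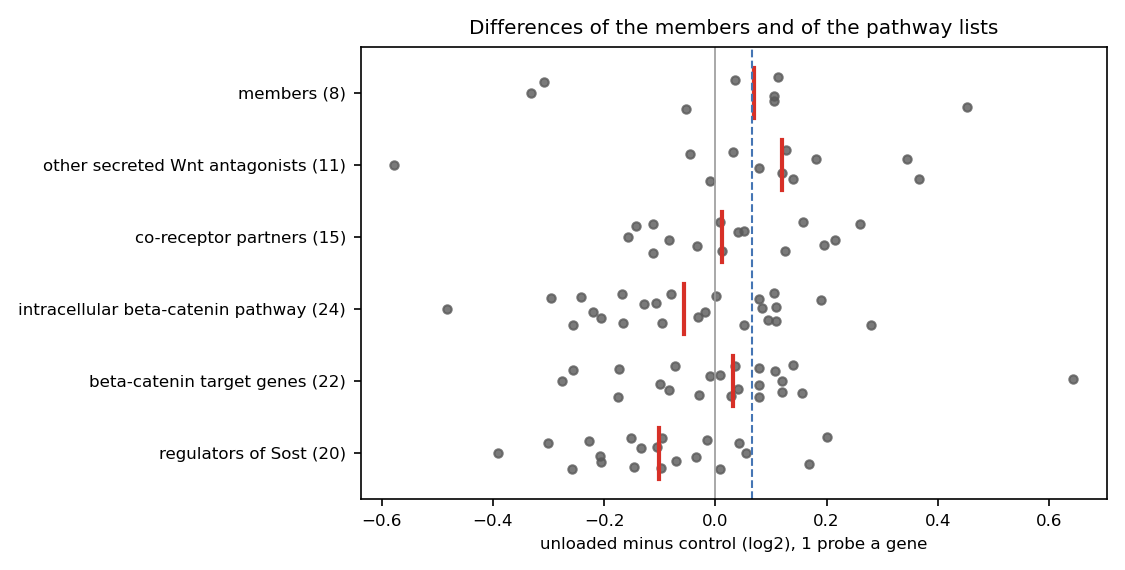
Log2 fold change of each tested gene (points) in the 5 pathway lists and the 8 tested members, with list medians as red bars and the median of all tested probes, 0.07, as a dashed line; the number of genes tested is in brackets. List medians lie between -0.10 and 0.12, and no point was called.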

How the data were processed

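The deposited scanner files hold linear spot intensity. The authors read the arrays with Agilent Feature Extraction 9.1.3.1 (protocol GE1-v5_91_0806, design 014868), per the file headers. Per the same headers, signals were background-corrected and detrended within each array, and arrays were not scaled to each other. The series matrix that the authors deposited gives the same intensity within a ratio of 0.995 to 1.005. It was used as an alternative.

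From these, log2 processed signals were computed and lowered by the 75th percentile over gene probes of each array, averaging repeat spots and leaving out 97 outlier gene spots. On no array did a gene probe have most spots saturated. Of each array's spots, 89.8% to 95.5% were well above background. Probes well above background on 4 or more of a group's 5 arrays, with 3 or more measured arrays in both groups, were tested with limma 3.58.1 in R 4.3.3 and adjusted over all 38629. The brightest tested probe stands for a gene. Single values had an exact permutation test and correlations 100000 resamples. The fit was checked on simulated data with independent noise and no slide effect, so the check does not cover the confounding of slide and group. The number of arrays limits the precision.

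All members and probes are reported, of each pathway list up to 4 genes with the smallest p, and Axin2, added after its value was seen. Of the genes most like a member, up to 3 are named, and those of Lrp6 are not reported here. Members and lists were chosen with earlier results of these data known. Gene names follow RefSeq (GRCm38.p6): 22951 probes matched by accession, 6659 had a current name, 3109 an older name, and 8455 retained the array's own label. Alternatives covered background, scaling, filters, variance model, weights, body weight, slide, replicate number, probe choice and each array left out.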

Additional observations from a re-analysis of the deposited data

Results flagged for a closer look

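Lrp5 in control 2 read 1.05, apart from the other 4 controls at 0.78 to 0.83; its gap to the nearest was 0.82 of the group's range, above the limit of 0.71 for 5 samples. Control 2 also had the highest chondrocyte marker mean of the controls, 2.55, and the part of that in the value was not tested.

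Lrp6 in control 5 read -2.39, apart from the other controls at -1.90 to -1.72, with a gap of 0.73 of the range. Control 5 is the control on slide 2, and without it the log2 fold change of Lrp6 was -0.45. Chance alone marks about 1 in 20 groups, and 24 groups were examined.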

How the results depend on the processing

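No alternative called a member or a pathway list gene. Kremen1 probe 1, Dkk1 probe 1 and Lrp5 kept a positive sign under all 25 alternatives, which include each array left out. Kremen1 probe 2 and Dkk1 probe 2 were negative and each kept that sign in 21 of 24. The smallest limma adjusted p among the alternatives was 0.111 for Kremen1 probe 1 and 0.141 for Lrp6. The probes called over the whole array numbered 3 with a trended, robust variance model, 0 with body weight as a covariate, 3 with slide as a fixed block, 7 on slide 2 alone and 0 to 2 with each array left out in turn.

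Several values changed sign, among them Lrp6 and Dkk2, the most negative members. Median scaling gave -0.060 for Sost probe 1 and -0.033 for Lrp4 probe 1. Lrp4 probe 1 was -0.041 under quantile normalization and -0.046 under cyclic loess. With body weight as a covariate, values were -0.052 for Sost probe 1, 0.00180 for Lrp4 probe 2, -0.062 for Lrp4 probe 1 and -0.00357 for Kremen2. The mean of both probes gave Lrp4 0.00503. With slide as a fixed block, and equally on slide 2 alone, values were -0.34 for Sost probe 1, 0.24 for Dkk1 probe 2 and 0.25 for Dkk2. The same settings gave 0.53 for Lrp4 probe 2, -0.31 for Lrp4 probe 1, 0.16 for Lrp6, 0.048 for Kremen1 probe 2 and -0.015 for Kremen2. These values rest on control 5, the 1 control on slide 2, and the cause was not tested. Leaving out each array in turn gave -0.051 to 0.12 for Sost probe 1 and -0.015 to 0.20 for Sost probe 2. It gave 0.024 to 0.20 for Dkk1 probe 1, -0.12 to 0.00137 for Dkk1 probe 2 and -0.47 to -0.13 for Dkk2. Ranges were -0.17 to 0.011 for Lrp4 probe 2, 0.010 to 0.14 for Lrp4 probe 1, 0.046 to 0.15 for Lrp5 and -0.45 to -0.28 for Lrp6. They were 0.37 to 0.52 for Kremen1 probe 1, -0.10 to 0.00163 for Kremen1 probe 2 and 0.039 to 0.25 for Kremen2, the last without control 1. With slide means removed as well as group means, Dkk2 with osteocyte markers had r = 0.86. No test is given for it, because control 5, the 1 control on slide 2, is then 0 by construction.

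Control and unloaded mice share replicate numbers but are separate animals, and same-numbered arrays correlated at only -0.14 to 0.18 in their deviations, with 1 of 5 numbers correlating best with its own. With replicate number as a block, 1 probe was called, as without it, and Kremen1 and Lrp6 had adjusted p-values of 0.239 and 0.259 in limma. Signal limits Sostdc1, which was at background on every array.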
